A study of Rattus norvegicus with 6 samples.

Results

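Transcripts of 8 aquaporins, the membrane channels that carry water and, in some members, glycerol, and of the vasopressin V2 receptor were followed in the renal cortex of rats given tris(2-chloroethyl)phosphate (TCEP), an organophosphate flame retardant. The members were chosen by name (Aqp1, Aqp2, Aqp3, Aqp4, Aqp6, Aqp7, Aqp8, Aqp11 and Avpr2), as the probes whose RefSeq accession maps to these symbols. They make up 9 of the 11804 genes that could be tested. RNA came from 6 male Sprague-Dawley (Crl:CD(SD)) rats bought at 5 weeks of age. The TCEP group of 3 rats received 400 mg/kg/day for 4 weeks, and the vehicle group of 3 rats received corn oil for the same 4 weeks. The labels give neither the route nor any later age. The cortex of each rat was read on 1 single-colour Agilent array, to find transcripts that differ after TCEP.

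In the kidney, water leaves the tubule through aquaporins in the cells that line it. The proximal tubule is always open to water, largely through Aqp1. The collecting duct is opened by the hormone vasopressin, which binds the V2 receptor on principal cells, raises cyclic AMP and moves Aqp2 from vesicles into the apical membrane. Water then leaves these cells through Aqp3 and Aqp4 in the basolateral membrane. Aqp6 lies in vesicles of the intercalated cells, which handle acid and base in the same duct.

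A level of 0 stands for the 75th percentile of an array's probes, and each step of 1 is a doubling of signal (log2). Differences are TCEP minus vehicle in these log2 units. A level is compared between arrays for 1 probe and not between genes, because probes differ in brightness. On single arrays 67.2% to 69.3% of probes that are no controls exceeded background clearly, and all 9 genes had such a probe on every array. All 20 listed proximal tubule genes were detected. So were 9 of the 10 thin limb and medulla genes with a probe, so detection alone cannot tell cortex from medulla. The TCEP arrays lay on one slide with one scan time and the vehicle arrays on another, so batch and group cannot be told apart in any comparison. In bulk tissue, fewer cells of a type and less RNA per cell cannot be told apart either.

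The 250 bases before the annotated start of transcription are shown for the 2 members whose 95% confidence interval excluded 0, Aqp1 and Avpr2, and for Aqp2 and Aqp3, the collecting duct channels that vasopressin signalling controls. The sequences are from RefSeq (build GRCr8, which the files do not use), at chr4:85812534-85812783 on the plus strand for Aqp1, chrX:156784889-156785138 on the plus strand for Avpr2, chr7:132590036-132590285 on the plus strand for Aqp2 and chr5:61040684-61040933 on the minus strand for Aqp3. Capitals mark matches on either strand to TGACG (the core of the cyclic AMP response element), GATAA (a motif of GATA factors), GGGCGG (known as GC box) and TATAAA (the letters of the TATA box).
Aqp1: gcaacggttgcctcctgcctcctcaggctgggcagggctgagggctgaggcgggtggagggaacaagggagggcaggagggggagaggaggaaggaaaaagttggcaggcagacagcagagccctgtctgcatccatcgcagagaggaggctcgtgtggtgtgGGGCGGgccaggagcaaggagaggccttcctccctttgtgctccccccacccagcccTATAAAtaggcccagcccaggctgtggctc
Avpr2: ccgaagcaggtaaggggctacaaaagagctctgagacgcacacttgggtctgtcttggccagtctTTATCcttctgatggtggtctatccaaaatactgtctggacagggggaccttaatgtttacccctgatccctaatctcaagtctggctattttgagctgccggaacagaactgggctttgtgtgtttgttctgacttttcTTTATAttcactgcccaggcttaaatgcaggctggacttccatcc
Aqp2: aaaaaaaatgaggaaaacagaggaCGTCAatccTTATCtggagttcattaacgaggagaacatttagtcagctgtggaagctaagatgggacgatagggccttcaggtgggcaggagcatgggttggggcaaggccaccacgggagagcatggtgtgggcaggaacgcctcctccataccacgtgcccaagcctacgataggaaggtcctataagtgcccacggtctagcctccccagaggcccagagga
Aqp3: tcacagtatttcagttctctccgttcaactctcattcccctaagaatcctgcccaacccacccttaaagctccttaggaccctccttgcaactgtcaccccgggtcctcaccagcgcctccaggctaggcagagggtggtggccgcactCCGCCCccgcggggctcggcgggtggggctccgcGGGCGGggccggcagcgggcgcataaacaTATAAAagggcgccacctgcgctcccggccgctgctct

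Of the 8 members with a promoter in the table, only that of Aqp2 held TGACG, at its opposite strand starting 226 bases before the start site, and none held the full element TGACGTCA. TGACG was found in 18.2% of all 33469 promoters of the same length and TGACGTCA in 1.59%. GATAA matched in Aqp2 and Avpr2, on the opposite strand, and in 23.5% of all promoters. TATAAA lay 30 bases before the start in Aqp1 and 38 bases before it in Aqp3, on the strand of the gene, and on the opposite strand in Avpr2, against 12.9% of all promoters on either strand. GGGCGG, present in 30.5% of all promoters, matched once each in Aqp1, Aqp4 and Aqp11 and at 2 places in Aqp3. These matches describe letters and no binding was measured. Aqp2 and Aqp6 lie in 1 cluster on chromosome 7 with only Aqp5 between them, and Aqp7 and Aqp3 lie on chromosome 5 with 1 annotated locus between them.

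None of the 9 members passed a Benjamini-Hochberg adjusted p of 0.05 in limma's test across all genes, where 0 of 11804 genes (0%) passed. Their adjusted p ranged from 0.572 to 0.975. At an unadjusted p under 0.05 there were 2 of 9 members, Aqp1 (higher in TCEP) and Avpr2 (lower), against 8.33% of all genes (4.21% higher and 4.12% lower). Over all genes that was 497 higher and 486 lower, against 605 and 264 without scaling between arrays and 249 and 148 with centring on spike-in probes. The members at this p numbered 0 with quantile normalization, spike-in centring or normexp, 1 without scaling, without the filter on dim probes or with a replicate block, and 0 to 3 as each array was left out (0 without TCEP replicate 1, TCEP replicate 2 or vehicle replicate 1, and 3 without vehicle replicate 2). For 2 of 9 members, Aqp1 and Aqp7, the 3 TCEP values and the 3 vehicle values were fully separate, against 15.6% of all genes (8.63% higher and 6.97% lower in TCEP). The mean was higher in TCEP for 1 member, Aqp1, and lower for 8, against 47.5% of all genes that were lower. The median difference of the members was -0.09, against 0.01 over all genes tested. With 9 genes each of these shares rests on few genes, and an exact permutation test of 3 against 3 arrays cannot go below p = 0.1.

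**Figure D1:**
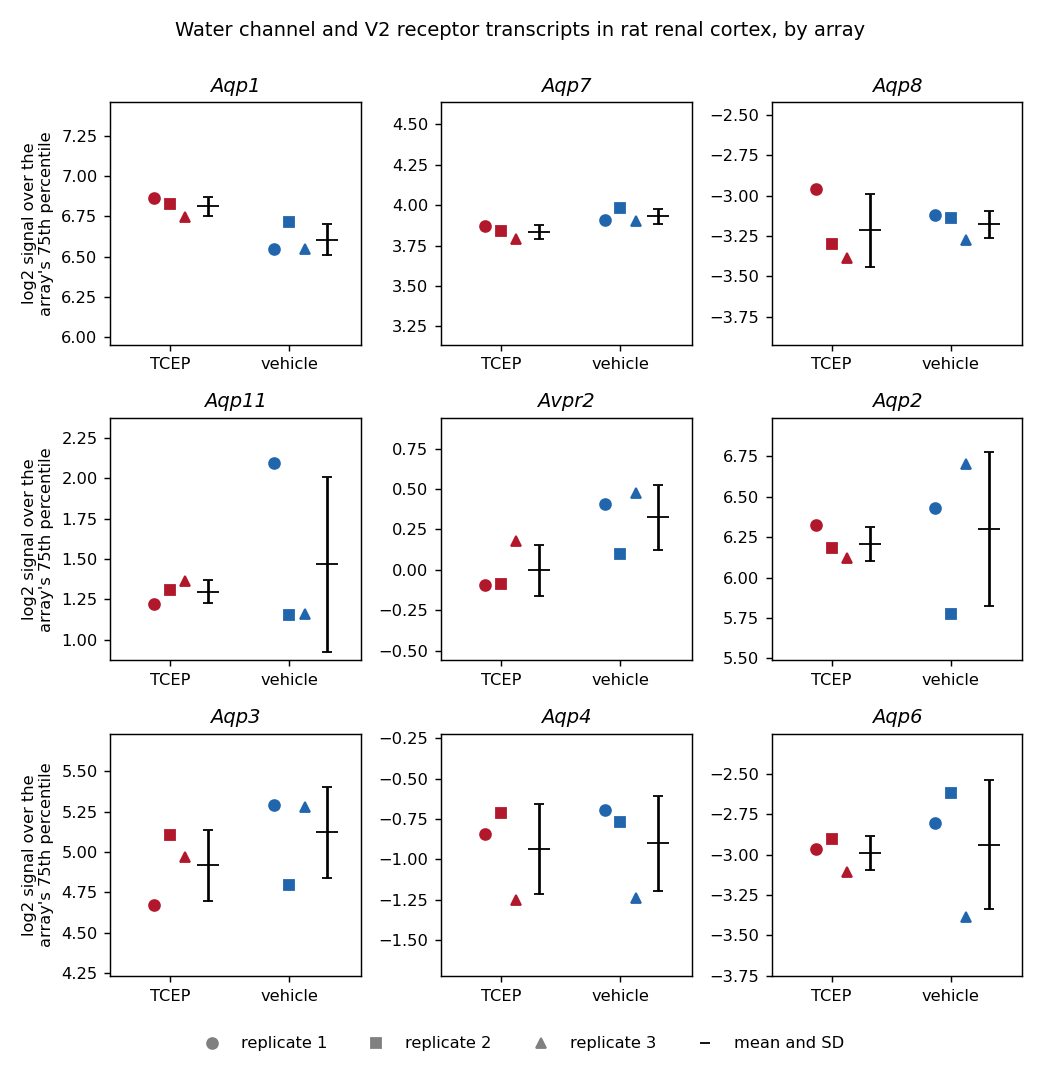
Each panel plots 1 gene, with the log2 signal relative to the array's 75th percentile on the y axis, the 3 TCEP arrays in red left of the 3 vehicle arrays in blue, symbols for the replicate number, and the mean with its SD in black. All panels span the same log2 width. The TCEP arrays of Aqp1 lie between 6.75 and 6.86, above the vehicle arrays, and single vehicle arrays stand apart in Aqp11 (2.09 on vehicle replicate 1) and Aqp2 (5.77 on vehicle replicate 2).

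Among the channels of the proximal tubule, Aqp1 had a higher mean in TCEP-treated cortex that did not pass the adjusted threshold. Its level was 6.86, 6.83 and 6.75 on the TCEP arrays, against 6.55, 6.72 and 6.55 on the vehicle arrays. All TCEP arrays lay above all vehicle arrays, with the nearest pair, TCEP replicate 3 and vehicle replicate 2, only 0.03 apart. The means were 6.81 ± 0.06 with TCEP and 6.60 ± 0.10 with vehicle (SD, n = 3 each). The difference was 0.21 (SE 0.08, 95% confidence interval 0.02 to 0.40), or 1.16-fold (limma, adjusted p = 0.572). It was 0.17 with another background correction and 0.25 without scaling between arrays, and lay between 0.18 and 0.26 as each array was left out. The groups overlapped and the interval included 0 with quantile normalization (-0.04 to 0.39), centring on spike-in probes (-0.11 to 0.60) and normexp background correction (-0.02 to 0.36).

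Aqp1 is also made by endothelial cells, red cells and the thin descending limb. Of 10 measured endothelial markers 2 were higher and 8 lower, with a median difference of -0.06. The summed signal of these markers, in multiples of the 75th percentile, was 75.8 to 85.2 on the TCEP arrays and 74.8 to 83.9 on the vehicle arrays. Red cell markers were higher in 1 of 8, at a summed signal of 668 to 799 with TCEP and 650.4 to 959 with vehicle. Proximal tubule markers other than Aqp1 and Aqp7 were higher in 7 of 18 and lower in 11. Without these members, the proximal list summed to 2912 to 3401 on the TCEP arrays and 3161 to 3318 on the vehicle arrays. No group of these markers was set apart between TCEP and vehicle in its sum.

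Of the list for the thin limb and medulla, 5 of 9 measured genes were higher and 4 lower, with a median of 0.01. The medullary urea transporter gene Slc14a2 differed by 0.01 (SE 0.09). One member of that list stood out: Cryab, which encodes the small heat shock protein alpha-B crystallin and is abundant in medulla, was at 7.77, 6.34 and 5.26 on the TCEP arrays and 3.75, 5.44 and 3.76 on the vehicle arrays. Its difference was 2.14 (SE 0.76, limma adjusted p = 0.561), with vehicle replicate 2 above TCEP replicate 3. Cldn10 differed by 0.25 (SE 0.11, limma adjusted p = 0.625) and was the 1 gene of the list whose groups did not overlap, against 15.6% of all genes. Cryab was the brightest gene of the list on every array and so weighs most in its sum. The summed signal of the list was 55.4 to 234 with TCEP and 28.6 to 58.8 with vehicle. Its part in the Aqp1 values was not tested.

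Aqp7, an aquaglyceroporin of the brush border of the straight proximal tubule that also passes glycerol, varied least among the members. Its level was 3.87, 3.84 and 3.79 with TCEP, against 3.91, 3.98 and 3.90 with vehicle. The 3 TCEP arrays lay just below the 3 vehicle arrays, with a gap of 0.03 at the closest. The difference was -0.10 (SE 0.06, 95% confidence interval -0.25 to 0.05, limma adjusted p = 0.712). With normexp background correction it was -0.0016, and the arrays overlapped then, as they did without scaling between arrays and with centring on spike-in probes. Aqp7 is also the glycerol channel of fat cells. Of 8 measured fat cell markers 6 were higher and 2 lower, and Lep and Retn were not well above background on all arrays of either group. The smallest p in that list were those of the fatty acid binding protein gene Fabp4 at 1.41 (SE 0.51), Cfd, the adipsin gene, at -0.82 (SE 0.37), Cidec at 0.66 (SE 0.59) and Lipe at 0.11 (SE 0.11). The summed signal of the 8 was 6.22 to 9.19 with TCEP and 6.73 to 7.17 with vehicle, and its part in the Aqp7 values was not tested.

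Aqp8, a water channel that lies mostly inside cells, was measured by 2 dim probes with different results. The brighter one was at -2.96, -3.30 and -3.39 with TCEP and at -3.12, -3.14 and -3.27 with vehicle. The TCEP arrays spread around the vehicle arrays, and the difference was -0.04 (SE 0.13, limma adjusted p = 0.952). The other probe was at -4.60, -4.82 and -5.47 with TCEP and at -4.33, -4.70 and -4.35 with vehicle, a difference of -0.50 (SE 0.24, limma adjusted p = 0.641 among single probes). Signals of that probe were 21.8 to 44.4 intensity units on the TCEP arrays and 37.2 to 48.6 on the vehicle arrays. The mean over both probes differed by -0.27, so the size of the Aqp8 difference depends on the probe.

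Aqp11, a channel of the endoplasmic reticulum whose loss in mice leads to cysts of the proximal tubule, was at 1.22, 1.31 and 1.36 with TCEP. On the vehicle arrays it was at 2.09, 1.15 and 1.16. Vehicle replicate 1 stood far above the other 5 arrays, which spanned 1.15 to 1.36. The means were 1.30 ± 0.07 with TCEP and 1.47 ± 0.54 with vehicle (SD, n = 3 each). The difference was -0.17 (SE 0.26, 95% confidence interval -0.82 to 0.48, limma adjusted p = 0.882). Without vehicle replicate 1 it was 0.14, and the 3 TCEP arrays then lay above the remaining 2 vehicle arrays. The lower mean of Aqp11 in TCEP thus rests on 1 vehicle rat. Only 1 named probe measures this gene.

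In the collecting duct, Avpr2, the receptor that couples vasopressin to cyclic AMP, had the largest difference among the probes chosen for the 9 members. Its level was -0.10, -0.09 and 0.18 on the TCEP arrays, against 0.41, 0.10 and 0.47 on the vehicle arrays. TCEP replicate 3 lay above vehicle replicate 2, so the groups overlapped by that pair. The means were -0.003 ± 0.16 with TCEP and 0.33 ± 0.20 with vehicle (SD, n = 3 each). The difference was -0.33 (SE 0.13, 95% confidence interval -0.65 to -0.003, limma adjusted p = 0.598), which is 0.80 of the vehicle level. A further probe of Avpr2 was at -0.21, -0.14 and 0.15 with TCEP and at 0.29, 0.14 and 0.42 with vehicle. It differed by -0.35 (SE 0.13, limma adjusted p = 0.574 among single probes), with the same pair of arrays as the closest. Leaving out each array moved the chosen probe between -0.44 (without vehicle replicate 2) and -0.25 (without vehicle replicate 3).

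Aqp2, the channel that vasopressin inserts into the apical membrane, spread widely among vehicle rats. Its level was 6.33, 6.19 and 6.12 with TCEP, against 6.43, 5.77 and 6.70 with vehicle. The TCEP arrays fell within the vehicle range, whose width of 0.93 exceeded that of 94.0% of all genes tested. The means were 6.21 ± 0.11 with TCEP and 6.30 ± 0.48 with vehicle (SD, n = 3 each). The difference was -0.09 (SE 0.24, 95% confidence interval -0.68 to 0.49, limma adjusted p = 0.937). It was -0.36 without vehicle replicate 2 and 0.11 without vehicle replicate 3, so its direction depends on single vehicle rats. A further Aqp2 probe was at 3.71, 3.38 and 3.56 with TCEP and at 3.51, 3.27 and 3.90 with vehicle. That probe also placed vehicle replicate 2 lowest and vehicle replicate 3 highest, and differed by -0.01 (SE 0.18).

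Aqp3, the basolateral water and glycerol channel of the principal cell, was at 4.67, 5.11 and 4.97 with TCEP, against 5.29, 4.80 and 5.28 with vehicle. Vehicle replicate 2 again lay low, inside the TCEP range, while the other vehicle arrays lay above all TCEP arrays. The means were 4.92 ± 0.22 with TCEP and 5.12 ± 0.28 with vehicle (SD, n = 3 each). The difference was -0.20 (SE 0.18, 95% confidence interval -0.64 to 0.23, limma adjusted p = 0.781). It was -0.37 without vehicle replicate 2 and -0.08 without TCEP replicate 1, and negative with each array left out in turn.

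Aqp4, a basolateral channel that does not depend on vasopressin for its place in the membrane, did not follow Aqp2 and Aqp3 across the arrays. Its level was -0.84, -0.71 and -1.25 with TCEP, against -0.70, -0.77 and -1.24 with vehicle. In each group replicate 3 was the lowest, and the groups covered the same range. The difference was -0.03 (SE 0.20, 95% confidence interval -0.52 to 0.46, limma adjusted p = 0.975), and its sign turned in 2 of 11 other processing settings and without 3 of the 6 arrays. Of 6 Aqp4 probes 3 were detected, and the other detected probes differed by -0.10 (SE 0.08) and -0.09 (SE 0.13). At these probes replicate 3 was not set apart in the vehicle group.

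Aqp6, of the intercalated cell, was at -2.97, -2.90 and -3.11 with TCEP, against -2.81, -2.62 and -3.39 with vehicle. All TCEP arrays lay within the vehicle range. The difference was -0.05 (SE 0.20, limma adjusted p = 0.956), and -0.11 (SE 0.22) at the further probe, which also had vehicle replicate 2 highest and vehicle replicate 3 lowest. Without vehicle replicate 3 the chosen probe differed by -0.28 and without vehicle replicate 2 by 0.10.

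**Figure D2:**
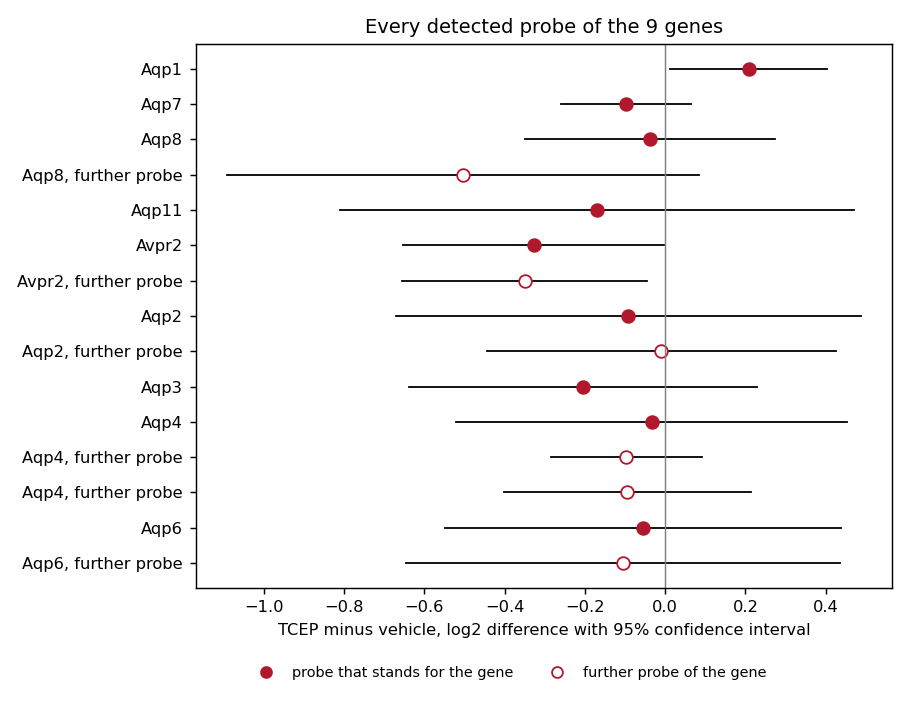
Each row is 1 detected probe of the 9 genes, with the TCEP minus vehicle log2 difference on the x axis, a point for the estimate and a line for its 95% confidence interval from the fit over all detected probes. Filled points are the probes that stand for their genes and open points are further probes. Of 15 probes 14 lie below 0, and the lines of both Avpr2 probes and of Aqp1 do not cross 0.

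Across the 15 detected probes of the members, 14 were lower and 1 was higher in TCEP, with limma adjusted p between 0.574 and 0.993. Probes of 1 gene share their RNA, so this count is not one of independent measurements. The direction of Aqp1, Aqp3, Aqp7 and Avpr2 held with each of the 6 arrays left out and in all 11 other settings. For Aqp2, Aqp4, Aqp6, Aqp8 and Aqp11 at least 1 left-out array turned it.

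**Figure D3:**
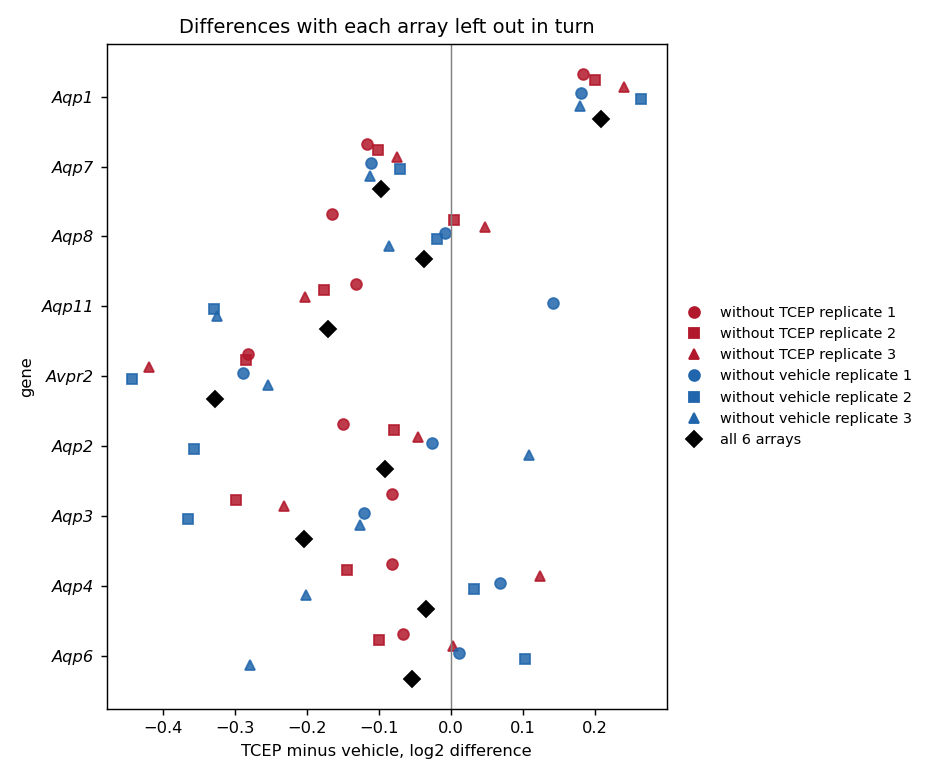
The x axis gives the TCEP minus vehicle log2 difference of each gene on the y axis. Coloured symbols are the fits with 1 array left out (red for a TCEP array, blue for a vehicle array, the shape for its replicate number) and the black diamond is the fit to all 6 arrays. Aqp1 stays between 0.18 and 0.26 and Avpr2 between -0.44 and -0.25, while Aqp11 moves to 0.14 without vehicle replicate 1.

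None of the principal cell genes around these channels passed the adjusted threshold. Leaving out the members, 8 of 12 measured markers were lower and 4 higher, where 47.5% of all genes were lower, and 1 had an unadjusted p under 0.05, a share near the 8.33% of all genes. That gene was Kcnj1, the potassium channel ROMK, at -0.32 (SE 0.09, limma adjusted p = 0.535). Scnn1a, a subunit of the epithelial sodium channel, differed by -0.36 (SE 0.17) and Gata3, a transcription factor of the principal cell, by -0.26 (SE 0.13). Among the 4 with higher means, St6gal1 differed by 0.39 (SE 0.48) and Elf5, an ETS transcription factor, by 0.17 (SE 0.20). The summed signal of these 12 markers was 109.6, 119 and 118 on the TCEP arrays and 136, 113 and 138 on the vehicle arrays. The sums overlapped through vehicle replicate 2, which lay between TCEP replicate 1 and the other TCEP arrays. Vehicle replicate 2 was the vehicle array with the least Avpr2, Aqp2 and Aqp3. It had the highest sums for white blood cell markers (84.2 to 91.4 with TCEP and 94.1 to 130.2 with vehicle) and red cell markers. Among the vehicle arrays it also had the highest sums for thin limb and medulla (58.8), thick limb (674) and fat cell markers. Its sums for podocyte (35.2), distal tubule (155), endothelial and proximal tubule markers were the lowest of the vehicle arrays. TCEP replicate 1 had part of the same profile. Its sums for thin limb and medulla (234), thick limb (727) and fat cell markers (9.19) were the highest of the TCEP arrays. Its podocyte (33.4), endothelial and proximal tubule sums were the lowest of them. Unlike vehicle replicate 2, it also had the lowest red cell sum (668) of its group, and its distal tubule and white blood cell sums lay between those of the other TCEP arrays. The part of cell content in the values of Avpr2, Aqp2 and Aqp3 was not tested.

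The other intercalated cell genes mostly had lower means in TCEP, with none past the adjusted threshold. Leaving out Aqp6, 13 of 15 measured markers were lower and 2 higher, and 7 had an unadjusted p under 0.05, all lower, against 4.12% of all genes. Those with the smallest p included the proton pump subunit genes Atp6v1c2 at -0.51 (SE 0.10) and Atp6v1b1 at -0.29 (SE 0.07), and pendrin (Slc26a4) at -0.49 (SE 0.13). The summed signal, Aqp6 included, was 159 to 180 on the TCEP arrays and 192 to 211 on the vehicle arrays, without overlap. Atp6v1g3, another proton pump subunit gene at -0.29 (SE 0.10), and Slc26a4 were the brightest genes of the list on every array and so weigh most in its sum. Both are among the 7 genes counted above, so the sum is not separate from that count. Among markers of other segments and cells, lower means were found in 7 of 8 distal tubule, 8 of 8 podocyte, 8 of 10 endothelial and 4 of 6 thick limb genes. They were also found in 7 of 8 red cell, 9 of 9 white blood cell and 12 of 20 proximal tubule genes, but in 4 of 9 thin limb and medulla and 2 of 8 fat cell genes. Of all genes 47.5% were lower. Aqp6 itself differed by -0.05, with an interval of -0.55 to 0.44 that holds the differences of the named intercalated cell genes, and whether it differs from them was not tested.

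**Figure D4:**
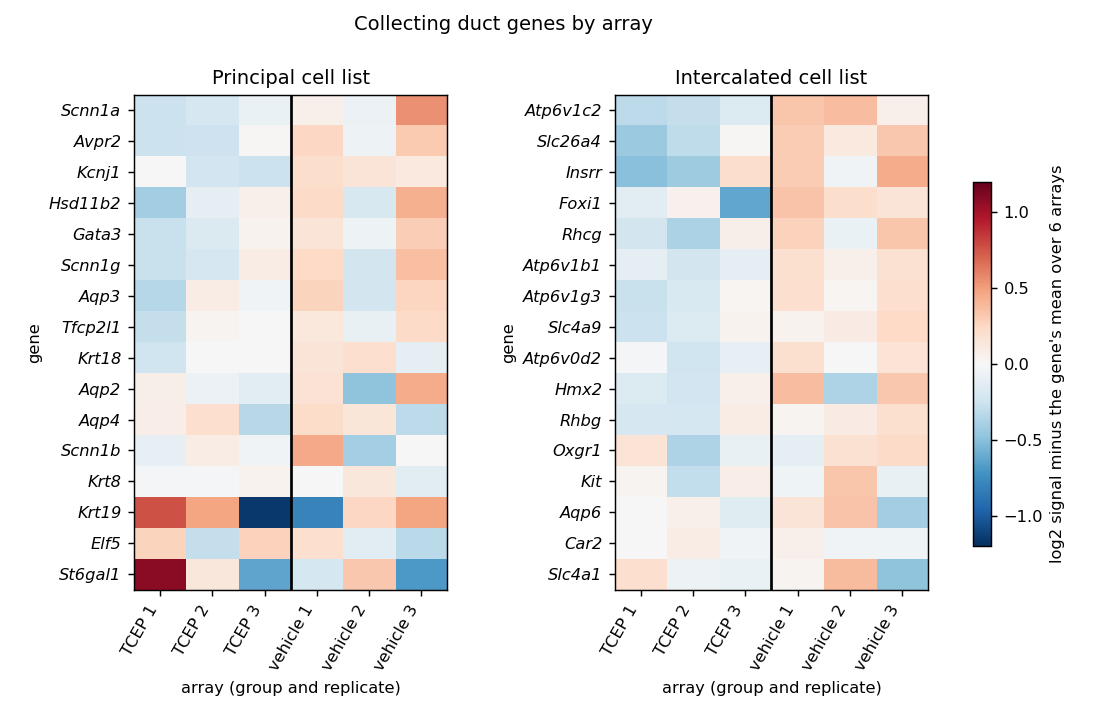
Each row is a gene and each column an array, TCEP arrays left of the black line and vehicle arrays right of it, and the colour gives the log2 signal minus the gene's mean over the 6 arrays (red higher, blue lower). Genes run from the lowest difference at the top to the highest at the bottom. Vehicle replicate 2 is blue for Aqp2, Aqp3 and Scnn1b, and Aqp6 sits near the foot of the intercalated list.

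Among genes that act with the V2 receptor or move Aqp2 none passed the adjusted threshold. Of 26 measured genes of vasopressin signalling 12 were higher and 14 lower, with a median of -0.0019. At an unadjusted p under 0.05 in limma there were 0 of them, against 8.33% of all genes. Those with the smallest p were Adcy3, an adenylyl cyclase, at -0.56 (SE 0.24), Gata3, Avpr1a, the V1a receptor gene, at -0.36 (SE 0.18), and Avp, the hormone gene itself, at 0.28 (SE 0.18). Adcy3 and Avp were dim, at levels of -6.17 to -4.87 and -5.94 to -5.13, and their values are limited by signal over background. Of 20 genes that move Aqp2 vesicles 12 were higher and 8 lower, with a median of 0.02 and again 0 at an unadjusted p under 0.05. Those with the smallest p were the caveolin gene Cav1 at -0.25 (SE 0.14), Vta1, an endosomal sorting gene, at 0.11 (SE 0.06), the vesicle fusion gene Vamp2 at -0.14 (SE 0.09) and Mal at -0.19 (SE 0.12). Vta1 was the 1 gene of the 20 whose groups did not overlap, against 15.6% of all genes without overlap.

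Of 7 urea transport and osmolyte genes, which serve water conservation in a hypertonic medulla, 4 were higher and 3 lower (median 0.01). At an unadjusted p under 0.05 in limma there were 0 of the 7, against 8.33% of all genes. The taurine transporter gene Slc6a6 was at 2.52, 1.02 and 1.20 with TCEP and at 1.09, 1.19 and 1.03 with vehicle. TCEP replicate 1 alone stood apart there, as it did for the inositol transporter gene Slc5a3 at 3.57, against 2.34 to 2.95 on the other 5 arrays. Of the 4 other aquaporins tested 1 was higher and 3 lower. Aqp5 differed by -0.68 (SE 0.40), Aqp9 by -0.11 (SE 0.23), Aqp12a by 0.05 (SE 0.10) and Mip, the lens channel gene, by -0.04 (SE 0.11), with limma adjusted p from 0.696 upwards. Aqp5 and Aqp9 were dim, at levels of -5.06 to -3.34 and -5.28 to -4.63.

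Across the 6 arrays the members did not share 1 pattern. Likeness was taken as the root mean square difference between 2 genes' log2 values after each gene's mean was subtracted. It is not scaled, so genes that vary little lie close to each other whatever their pattern. Among the 36 pairs of members the closest were Aqp7 and Aqp8 (0.12), then Aqp4 and Aqp6 (0.14), both low on replicate 3 of each group. Next came Aqp1 and Aqp7 (0.16), with differences of opposite sign, and Aqp3 and Avpr2 (0.16), while Aqp2 was 0.23 from Aqp3 and 0.25 from Avpr2. The farthest pair was Aqp2 and Aqp6 (0.49), neighbours in the genome, which ran opposite ways among the vehicle arrays.

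Among the other 11795 genes, those nearest to Aqp1 were Lasp1 (0.02), Ankib1 (0.03) and Nt5c3a (0.03), against a median of 0.18 over all of them. Nearest to Avpr2 were Tmem45b, Fabp3 and Ehhadh (0.04 each), with differences of -0.32, -0.33 and -0.37. Nearest to Aqp2 were Prrt1 (0.08), the olfactory receptor gene Or52s6 (0.08) and the defensin gene Defb1 (0.10). Nearest to Aqp11 were Acta1 (0.07), the sodium-calcium exchanger gene Slc8a1 (0.07) and Echdc2 (0.08), which share its high value on vehicle replicate 1. These names describe a pattern over 6 arrays and nothing more.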

How the data were processed

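RNA of the renal cortex of 6 rats (0.2 ug labelled per array, per the labels' protocols) was measured on 1-colour arrays, 3 TCEP and 3 vehicle. Spots were read with Feature Extraction 10.7.1.1 (Agilent), per the file headers. From each spot the authors deposited a linear intensity, with background and spatial trend removed and no scaling between arrays. The same deposited files hold median intensities and other values of 0 or 1 that flag each spot. The deposited series matrix holds that signal divided by a constant per array, close to the array's own 75th percentile. The array design's own coordinates were not used.

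Of 61657 non-control probes 27460 were named through RefSeq accessions (GRCr8 gene table), and 12 outlier-flagged probes were left out. All 9 members had probes (18 in all, 15 detected). Signals were divided by the 75th percentile of their array before log2 was taken. The probe with the highest mean stood for its gene, provided that all 3 arrays of TCEP or all 3 of vehicle had it well above background. limma 3.58.1 in R 4.3.3 (lmFit, eBayes, group as sole term, two-sided, Benjamini-Hochberg over 11804 genes) gave differences, SE and 95% intervals. The fit was tested on simulated data. Figures used Python 3.11.15 and matplotlib 3.10.9. The number of arrays limits the precision. Members and gene lists were chosen with earlier results of these data known. All members are named. The rule for further names was up to 4 genes per list by smallest unadjusted p, and for each member the 3 genes nearest in pattern. Many of the list genes under this rule are not described. Among them are all those of the thick limb, distal tubule, podocyte, endothelial, red cell and white blood cell lists. The nearest genes are given for Aqp1, Avpr2, Aqp2 and Aqp11 only. Slc14a2, Scnn1b, St6gal1 and Elf5 were added after their values were seen. The series' design text calls the 3 samples of a group biological replicates, and no label ties a replicate number to a litter or day.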

Additional observations from a re-analysis of the deposited data

How the results depend on the processing

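No member passed the adjusted threshold in any of the 11 other settings or with any of the 6 arrays left out. Over all genes the count of calls was 0 in the 11 other settings and 0 to 1 with an array left out. The 1 call, without TCEP replicate 3, was Dio2 (difference 2.79, adjusted p = 0.0432), which did not pass the filter on dim probes with all 6 arrays and was not called without that filter. The members whose groups did not overlap numbered 2 with all arrays, 1 with quantile normalization (Aqp7), 1 without scaling between arrays (Aqp1), 0 with spike-in centring, 0 with normexp, and 2 to 5 with an array left out, where 23.1% to 28% of all genes were also free of overlap. The median difference of the members was -0.13 to -0.0078 with an array left out (-0.0078 without vehicle replicate 1) and -0.11 to -0.05 otherwise. Signs turned for Aqp2 (-0.36 to 0.11 over left-out arrays, positive without vehicle replicate 3), Aqp4 (0.0080 without scaling, 0.00048 with spike-in centring, -0.20 to 0.12 over left-out arrays, positive without TCEP replicate 3, vehicle replicate 1 or vehicle replicate 2), Aqp6 (-0.28 to 0.10, positive without TCEP replicate 3, vehicle replicate 1 or vehicle replicate 2), Aqp8 (0.0043 without scaling, -0.17 to 0.048 over left-out arrays, positive without TCEP replicate 2 or 3) and Aqp11 (-0.33 to 0.14, positive without vehicle replicate 1). The cause was not tested. The median of all genes was 0.05 without scaling and 0.04 with spike-in centring, against 0.01, and the genes at an unadjusted p under 0.05 were 869 and 397, against 983, and 1568 with normexp. Deviations of same-numbered arrays of the 2 groups correlated at -0.15, -0.10 and 0.23, and those of differently numbered arrays at -0.33 to 0.37. Deviations within a group depend on each other, so these values do not settle whether replicate numbers pair the arrays. With the replicate block 0 members and 0 genes passed, as without it, the median difference was -0.09, and 850 genes had an unadjusted p under 0.05, against 983. The planned normexp correction was run on the median spot signals the files hold. Aqp6 and Aqp8 are dim, and their values are limited by signal over background.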
